A study of Mus musculus with 6 samples.

Results

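The collagen chains are the protein-coding genes whose symbol in the GENCODE vM21 annotation reads Col, a number, a and a number. The rule found 44 chains among 34289 genes with a transcript in the deposited tables. They were followed in RNA-seq libraries of postmitotic cortical neurons from mouse embryos at stage E14.5. The control group held 3 libraries labelled RP58+/+, and the mutant group held 3 labelled RP58-/-, with neither copy of the gene intact. The gene is now called Zbtb18 and encodes a transcriptional repressor with zinc fingers. Beyond cortical origin and the cell type neuron, no other allele, strain, Cre driver or treatment is named in the labels. They also do not say how the neurons were isolated or whether replicate libraries derive from different embryos, so p-values measure only the spread between these libraries, which may be technical. The question is how loss of this repressor changed the collagen transcripts that such neurons carry.

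Collagens are secreted or membrane-bound proteins whose chains wind around each other in a triple helix, alone or in fixed combinations with partner chains. Fibril-forming types such as I, II, III, V and XI build fibres, type IV builds the sheet of basement membranes, and the FACIT types (fibril-associated collagens with interrupted triple helices, such as IX, XII and XIV) sit on the surface of fibrils. In the embryonic cortex most collagen is known from blood vessels and the meninges, whose basement membrane anchors the end feet of radial glia. Neurons are not a major source of fibrillar collagen, though some membrane-bound and network-forming chains are known from neurons and synapses.

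Total estimated counts were 34645505 to 75892649 per library. The libraries were of 2 types, defined here by the gap between the deposited length and effective length of transcripts. In control 1, mutant 1 and mutant 2 this gap was 1 fixed value (here the fixed-length type), and in control 2, control 3 and mutant 3 it was smaller (here the estimated-length type). The types also differed in composition. Nuclear protein-coding genes held 78.35%, 78.5% and 81.83% of deposited TPM (scaled by effective length and total) in control 1, mutant 1 and mutant 2. They held 12.62%, 10.52% and 10.3% in control 2, control 3 and mutant 3. Deposited TPM is thus not on 1 scale across the types. What made the types differ is not stated in the labels. The fits therefore carried a term for library type, and values are given for each library. Zbtb18 was at 1902, 1587 and 1697 CPM (estimated counts scaled to library size, with TMM normalisation) in controls 1 to 3 and at 46.7, 45.7 and 538 CPM in mutants 1 to 3. All mutants lay below all controls, in the direction of the labels, and mutant 3 retained the most (log2 fold change -3.48 ± 0.81, SE; adjusted p = 0.0337, edgeR). That adjusted p was 0.0511 without control 3, 0.119 without mutant 1, 0.0899 without mutant 2 and 0.4003 without the library type term. The log2 fold change of Zbtb18 was -5.36 within the fixed-length type and only -1.61 within the estimated-length type, whose sole mutant is mutant 3. All 10 neuronal markers were present, with summed levels between 4866 and 9786 CPM. Of the 10, 4 fell (Dcx, Neurod6, Stmn2 and Gap43) and 2 rose (Rbfox3 and Snap25), against 7.01% and 7.92% of all genes tested. All these calls were lost without the library type term (adjusted p = 0.509 to 0.996, edgeR). Those of Dcx, Neurod6 and Snap25 were also lost without control 1, control 2, control 3 or mutant 3. The part of these markers in the collagen results was not tested.

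Collagen transcripts were scarce in the controls and more abundant in the mutants, and most of the gain in counts came from Col5a1. The 44 chains together held 25.3, 55.1 and 66.6 CPM in controls 1, 2 and 3 against 93.4, 129.8 and 201.3 CPM in mutants 1, 2 and 3. The groups did not overlap in this sum. They did overlap in the sum per length (deposited TPM rescaled to the same total over nuclear protein-coding genes), which was 16.3, 83.8 and 107.5 in controls and 39.9, 59.5 and 157.8 in mutants. Within each library type every mutant was above every control: 39.9 and 59.5 against 16.3 (fixed-length), and 157.8 against 83.8 and 107.5 (estimated-length). Each of these comparisons has an arm of 1 library. Col26a1 alone made up 50.7% and 52.2% of this sum in controls 2 and 3 and 31.1% in mutant 3. Col5a1 alone took 8.54%, 10.9% and 7.05% of the chains' counts in the controls and 52.8%, 47.4% and 50.03% in the mutants. In bulk RNA a change in level cannot be told apart from a change in the share of cells that carry the transcript.

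**Figure D1:**
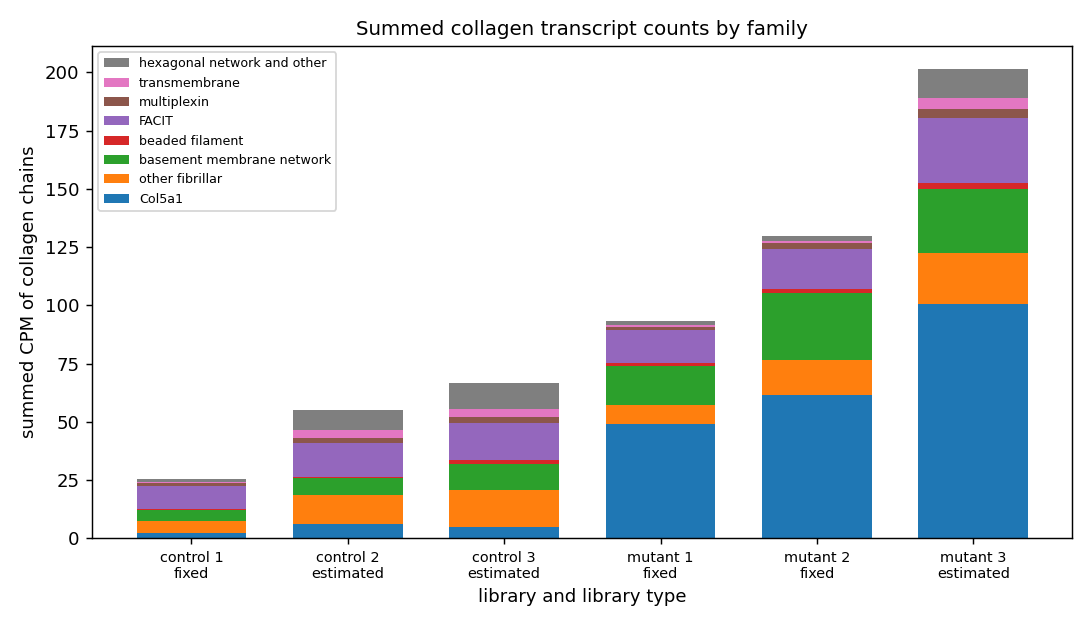
Stacked bars give the summed CPM of the collagen chains in each library, with Col5a1 drawn apart from the other fibrillar chains and the rest grouped by family; library type stands under each bar. The mutant bars reach 93.4 to 201.3 CPM against 25.3 to 66.6 CPM in controls, and Col5a1 is the largest block in each mutant.

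Of the 44 chains, 31 passed the filter on low counts and were tested. In the edgeR quasi-likelihood fit with the library type term, 9 rose at a Benjamini-Hochberg adjusted p under 0.05, against 7.92% of all 16985 genes tested. They were Col5a1, Col9a2, Col14a1, Col4a1, Col8a1, Col12a1, Col4a2, Col19a1 and Col4a6. None fell, against 7.01% of all genes, and 1 chain, Col9a3, was lower at an unadjusted p under 0.05. DESeq2 called 14 chains higher, against 10.3% of all genes, and Col9a3 lower, against 13.4%. Col4a6 was not among those 14. The median log2 fold change was 1.03 over the 31 chains tested and 0.00 over all genes tested. A chain that passed the filter only through its high group had to differ, so neither the median nor the count supports a shift of the family as a whole. Without the library type term 2 chains were called, Col5a1 and Col9a2, against 1.59% of all genes that rose. The count of chains that rose fell to 4 without control 2 or without mutant 3 and was 6 without control 1. Over all genes the count that rose fell as well, from 1346 of 16985. It was 844 of 17632 without control 2, 994 of 17386 without mutant 3 and 785 of 17999 without control 1.

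Groups did not overlap in 10 tested chains. All mutants exceeded all controls for Col2a1, Col4a1, Col4a2, Col5a1, Col6a1, Col8a1, Col9a2, Col11a2 and Col14a1, against 8.8% of all genes tested. All mutants lay below all controls for Col9a3, against 6.64%. Each within-type effect has an arm of 1 library (control 1 in the fixed-length type, mutant 3 in the estimated-length type), which is assumed to vary like the others. Within the fixed-length type, with the spread pooled over both types, 4 chains rose (Col5a1, Col4a1, Col4a2 and Col9a2), against 6.05% of all genes. Within the estimated-length type 6 rose (Col5a1, Col4a1, Col9a2, Col12a1, Col14a1 and Col19a1), against 4.6%, and Col20a1 fell, against 3.32%. The test of a difference in genotype effect between the types by edgeR called no tested chain, against 0.153% of all genes, and 1 chain, Col20a1, had an unadjusted p under 0.05. Its adjusted p was 0.207, the smallest among the chains.

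**Figure D2:**
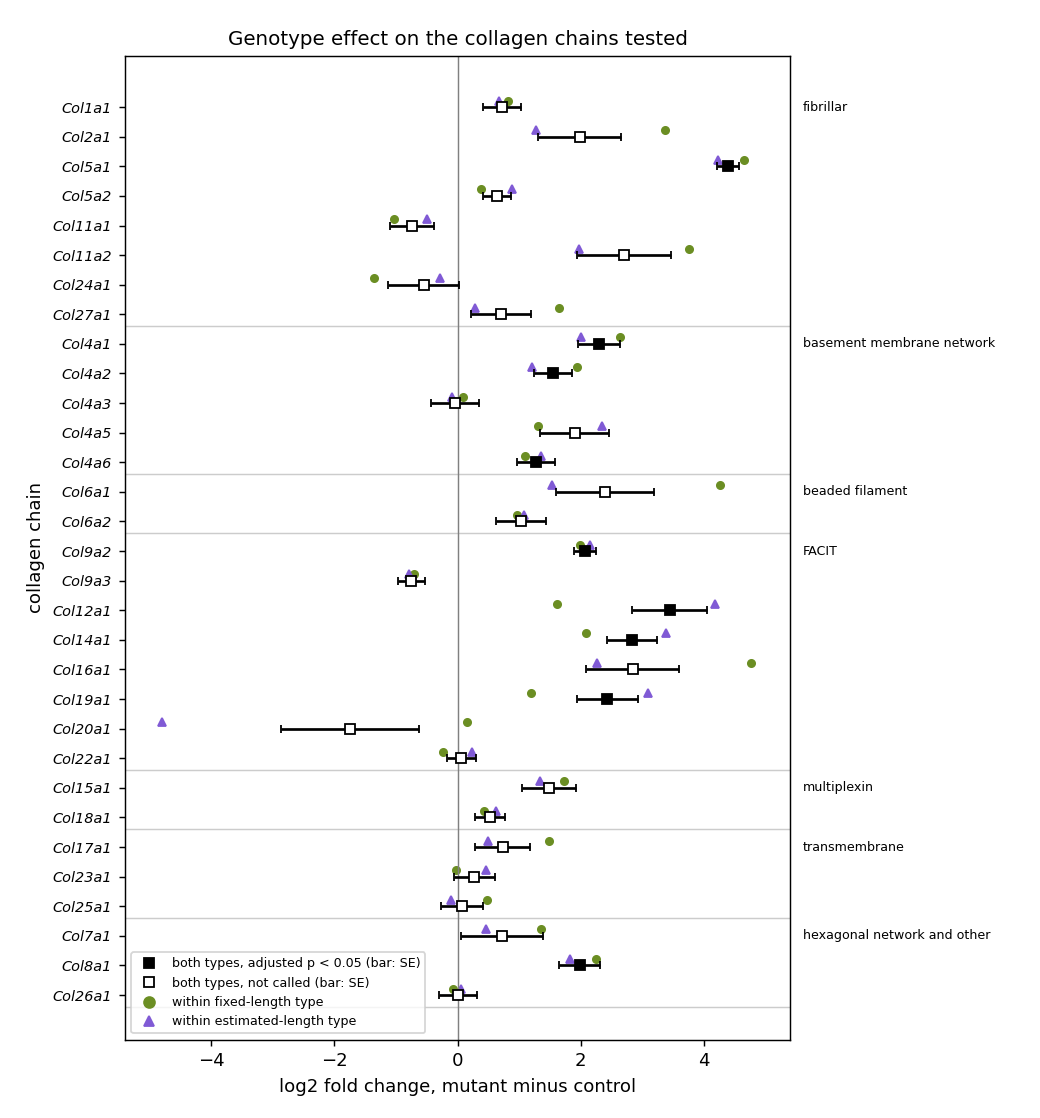
Squares give the log2 fold change of mutant minus control with its SE for the 31 tested chains, ordered by family, filled where the adjusted p was under 0.05. Circles and triangles give the same effect within the fixed-length and the estimated-length type; for Col5a1 both lie above 4, and for Col12a1 and Col20a1 they lie far apart.

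Among the fibrillar chains, 1 of 8 tested rose, out of 11 members, against 7.92% of all genes. Col5a1 (ENSMUSG00000026837, chromosome 2) encodes the alpha 1 chain of type V collagen, a minor fibrillar collagen that starts fibrils of type I and sets their width. It was at 2.16, 6.01 and 4.69 CPM in controls 1, 2 and 3 against 49.3, 61.5 and 100.7 CPM in mutants 1, 2 and 3. Every mutant was far above the highest control, and mutant 3 was the highest library. The estimated rise was 21.02-fold (log2 fold change 4.39 ± 0.18, SE; adjusted p = 4.08e-05, edgeR). It was 4.65 ± 0.27 within the fixed-length type and 4.22 ± 0.20 within the estimated-length type. The fits without mutant 3 (4.65) and without control 1 (4.24) rest on the same comparisons. The call held without the library type term (4.02, adjusted p = 0.0179) and in each fit that left out a library (adjusted p between 9.76e-05 and 0.00095). The full-length coding model Col5a1-201 held at least 89.7% of the gene's counts in each library. The only other model, Col5a1-202, is also annotated as coding. Counts were assigned only to annotated models, so this share does not tell spliced from unspliced RNA.

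The stretch before the annotated start of Col5a1 is shown because this chain carried most of the gain. It is taken from RefSeq (GRCm38.p6, chr2:27886175-27886424, plus strand), reads 5′ to 3′ and ends at the base before the start. Capitals mark GGGCGG, the GC box, on either strand.

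Col5a1: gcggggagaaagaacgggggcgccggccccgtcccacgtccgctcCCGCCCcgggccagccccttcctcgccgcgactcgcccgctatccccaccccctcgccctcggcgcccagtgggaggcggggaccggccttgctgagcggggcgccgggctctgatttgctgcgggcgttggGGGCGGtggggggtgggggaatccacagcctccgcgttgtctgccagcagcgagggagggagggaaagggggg

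The Col5a1 stretch was 76.4% G and C. It held 2 GC boxes and no match to the TATA box (TATAAA), to the CCAAT box or to CATCTG. That last motif is the E-box core inside the longer element that RP58 was reported to bind, and ACATCTG is that core with the base before it.

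The other type V chains did not follow. Col5a2, the usual partner of Col5a1 in the type V trimer, was at 2.83, 5.25 and 3.62 CPM in controls against 3.80, 3.57 and 8.26 CPM in mutants. These groups overlapped, and the chain was not called (log2 fold change 0.64 ± 0.23, adjusted p = 0.111). Col5a3 stayed below the filter, with 33 counts over all libraries. Compared on the same per-length scale, the ratio of Col5a1 to Col5a2 was 1.16, 0.564 and 0.831 in controls and 15.9, 19.9 and 9.38 in mutants. The log2 ratio differed by 4.14 between genotypes, with an SD of 0.52 in controls and 0.56 in mutants. The exact two-sided permutation test gave p = 0.10, the smallest that 3 libraries against 3 allow. Col5a1 was already called higher, so this ratio is a description and its test adds no support.

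The remaining fibrillar chains were called in neither direction in the edgeR fit, and DESeq2 called Col11a2 and Col2a1 higher. Col11a2, a chain of type XI collagen of cartilage, was at 0.350, 0.715 and 1.54 CPM in controls against 1.81, 8.59 and 4.45 CPM in mutants. Mutant 2 was far above mutant 1, and the adjusted p was 0.0638 (0.000514 with DESeq2). Col2a1, the main collagen of cartilage, was at 0.0636, 0.164 and 0.663 CPM in controls against 1.08, 0.973 and 1.01 CPM in mutants (adjusted p = 0.103; 0.0244 with DESeq2). Col11a1, the partner of Col11a2, was at 1.56, 3.32 and 6.73 CPM in controls against 0.560, 0.917 and 3.54 CPM in mutants, with overlap (log2 fold change -0.74 ± 0.36, adjusted p = 0.224). Col27a1 and Col24a1, long chains of cartilage and bone, gave 0.70 ± 0.49 and -0.55 ± 0.58 (adjusted p = 0.403 and 0.581). The chains that make up bulk connective tissue were nearly absent. Col1a1 stayed between 0.254 and 0.668 CPM, Col1a2 had 15 counts over all libraries and Col3a1 had 46. Cartilage and bone markers did not rise: none of the 2 tested of 7 was called, Comp had no count in any library, and their summed level was 3.12 to 4.45 CPM in controls against 2.77 to 3.34 CPM in mutants.

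Of the 6 chains of the basement membrane network, 5 were tested and 3 rose, against 7.92% of all genes. Col4a1 and Col4a2 encode the chains of the common type IV trimer, which contains both. Col4a1 was at 1.84, 2.86 and 4.34 CPM in controls 1, 2 and 3 against 8.09, 15.2 and 14.4 CPM in mutants 1, 2 and 3. Its groups did not overlap, and it rose 4.90-fold (log2 fold change 2.29 ± 0.34, adjusted p = 0.00564). The call held in each fit that left out a library (adjusted p up to 0.0470) and was lost without the library type term (0.0906).

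Col4a2 was at 2.42, 3.14 and 4.74 CPM in controls against 7.30, 11.4 and 9.05 CPM in mutants. It rose 2.93-fold (log2 fold change 1.55 ± 0.31, adjusted p = 0.0186), and the call was lost without control 1 (0.132), without control 2 (0.0669) or without the library type term (0.147). The per-length ratio of Col4a1 to Col4a2 was 0.427, 0.726 and 0.892 in controls and 0.997, 0.949 and 1.75 in mutants. All mutants lay above all controls in this ratio as well, and the log2 ratio differed by 0.86 (SD 0.55 in controls and 0.49 in mutants). The exact two-sided permutation test gave p = 0.10, the smallest possible. Both chains were already called higher, so this ratio too is a description and its test adds no support. Col4a1 and Col4a2 lie head to head on chromosome 8, and their RefSeq starts (GRCm38.p6) overlap by 22 bases. Nearly all counts of each came from the coding model, at least 96.8% for Col4a1-201 and at least 92.0% for Col4a2-201.

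The other type IV chains were scarcer. Col4a6, on the X chromosome, was at 0.191, 0.357 and 0.450 CPM in controls against 0.560, 0.355 and 1.09 CPM in mutants. The noncoding model Col4a6-202 held 27.0%, 100% and 65.5% of the gene's counts in controls and 6.54%, 0% and 39.1% in mutants. In the gene's CPM, mutant 2 lay among the controls (log2 fold change 1.27 ± 0.31, adjusted p = 0.0417). The call was lost with DESeq2 (adjusted p = 0.0674) and with effective length offsets (0.143). When a library was left out it was kept only without mutant 2 (0.0382). The adjusted p reached 0.275 without mutant 3 and was 0.996 without the library type term. Without the other libraries in turn, the adjusted p was 0.156 (control 1), 0.197 (control 2), 0.145 (control 3) and 0.0905 (mutant 1). Col4a5, its neighbour and partner, was at 0.382, 0.328 and 0.521 CPM in controls against 0.405, 1.61 and 2.27 CPM in mutants, with an adjusted p of 0.0694 (0.0313 with DESeq2). Col4a3 had a log2 fold change of -0.04 ± 0.39 (adjusted p = 0.986), and Col4a4 had 19 counts in all.

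**Figure D3:**
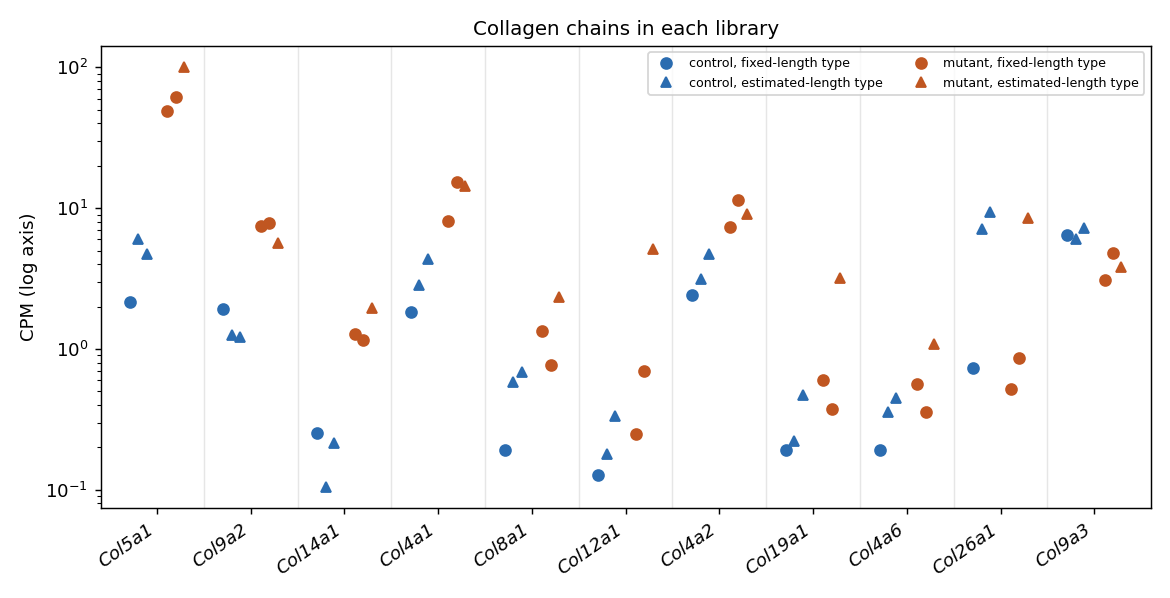
Each point is the CPM of a chain in a library on a log axis, coloured by genotype and shaped by library type, for the 9 chains that rose, Col26a1 and Col9a3. Col5a1, Col9a2, Col4a1 and Col14a1 separate the genotypes, whereas the high values of Col12a1 and Col19a1 sit in mutant 3 and those of Col26a1 follow the library type.

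Of the 9 FACIT chains, 8 were tested and 4 rose, against 7.92% of all genes. Col9a2 (ENSMUSG00000028626, chromosome 4) encodes the alpha 2 chain of type IX collagen, which decorates fibrils of type II in cartilage. It was at 1.91, 1.27 and 1.21 CPM in controls 1, 2 and 3 against 7.47, 7.87 and 5.63 CPM in mutants 1, 2 and 3. The lowest mutant was well above the highest control, and the SD over both library types was 0.388 CPM in controls and 1.20 CPM in mutants. It rose 4.20-fold (log2 fold change 2.07 ± 0.18, adjusted p = 0.000581), also without the library type term (adjusted p = 0.0284), and with any library left out (0.00121 to 0.0109). The effect was 1.99 ± 0.27 within the fixed-length and 2.15 ± 0.23 within the estimated-length type.

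The partner chains of type IX did not rise with it. Col9a3, named after its values were seen, was at 6.49, 6.09 and 7.18 CPM in controls against 3.11, 4.79 and 3.81 CPM in mutants. All mutants lay below all controls, but the chain was not called (log2 fold change -0.75 ± 0.22, adjusted p = 0.0716; 0.00924 with DESeq2). Col9a1, which completes the trimer, had 36 counts over all libraries: 1, 1 and 23 in controls 1 to 3 and 0, 0 and 11 in mutants 1 to 3. Per length, the ratio of Col9a2 to Col9a3 was 0.224, 0.223 and 0.167 in controls and 2.52, 1.84 and 1.12 in mutants. Col9a3 was thus the more abundant of the pair in each control and Col9a2 in each mutant. The log2 ratio differed by 3.10, with an SD of 0.24 in controls and 0.59 in mutants (exact two-sided permutation p = 0.10, the smallest possible). Col9a2 was already called higher and Col9a3 was named after its values were seen. This ratio too is thus a description, and its test adds no support.

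**Figure D4:**
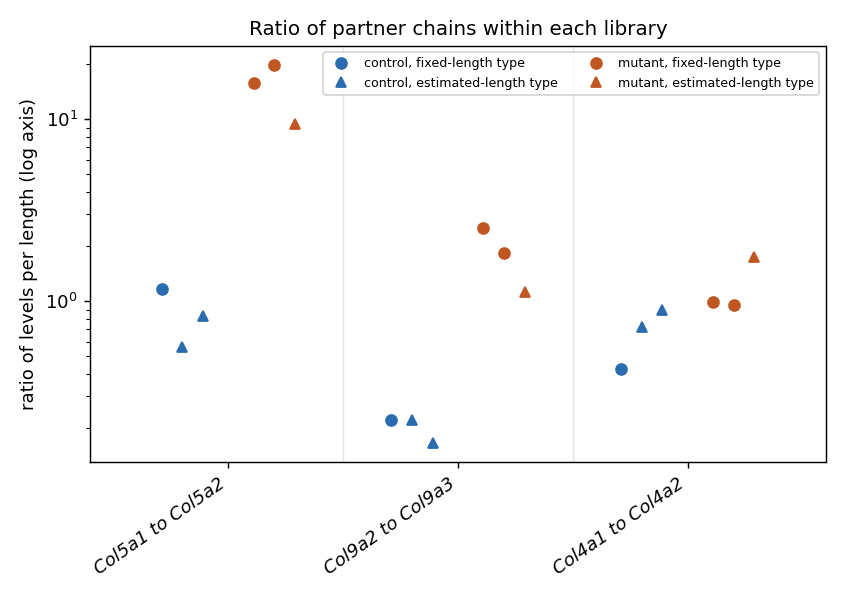
Points give, within each library, the ratio of the per-length levels of partner chains on a log axis, by genotype and library type. Col5a1 to Col5a2 moves from 0.564 to 1.16 in controls to 9.38 to 19.9 in mutants, Col9a2 to Col9a3 crosses 1, and Col4a1 to Col4a2 shifts least.

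Col14a1, Col12a1 and Col19a1 rose from levels near the detection limit. Col14a1, a chain that binds fibrils of soft tissue, was at 0.254, 0.104 and 0.213 CPM in controls (8, 7 and 9 counts) and at 1.27, 1.16 and 1.96 CPM in mutants. The groups did not overlap (log2 fold change 2.83 ± 0.40, adjusted p = 0.00472). The log2 fold change was 3.42 without control 1 and 2.09 without mutant 3, and the call was lost without mutant 3 (0.0731) and without the library type term (0.0869). Col12a1, of tendon and fascia, was at 0.127, 0.179 and 0.332 CPM in controls against 0.251, 0.692 and 5.14 CPM in mutants. Mutant 1 lay within the controls and mutant 3 held most of the signal. Its log2 fold change was 3.44 ± 0.61 (adjusted p = 0.0120). It was 1.61 without mutant 3, 2.84 without control 2 and 4.20 without control 1. The adjusted p was 0.301 without mutant 3, 0.0694 without control 2, 0.0758 without control 3 and 0.455 without the library type term. The retained-intron model Col12a1-203 held 75.0%, 33.3% and 0% of the gene's counts in controls and 76.9%, 25.8% and 18.0% in mutants.

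Col19a1 encodes a chain that was reported in neurons of the developing brain, where a fragment of it acts in the formation of synapses. It was at 0.191, 0.223 and 0.474 CPM in controls against 0.598, 0.374 and 3.18 CPM in mutants. Mutant 2 lay among the controls and mutant 3 far above all others (log2 fold change 2.43 ± 0.49, adjusted p = 0.0200). The log2 fold change was 1.19 without mutant 3 and 3.12 without control 1. The call was lost without mutant 3 (0.338), control 2 (0.0762), control 3 (0.0898) or mutant 1 (0.0568), and without the library type term (0.604). The noncoding model Col19a1-203 held 100%, 78.3% and 31.1% of the gene's counts in controls and 87.1%, 62.4% and 30.4% in mutants. Col16a1, another FACIT chain, had no count in control 1 and was at 0.283 and 0.497 CPM in controls 2 and 3, against 0.482, 1.63 and 1.98 CPM in mutants (adjusted p = 0.0519; 0.000846 with DESeq2). Col20a1, which fell within the estimated-length type, had 10, 66 and 50 counts in controls 1, 2 and 3, 12 and 26 in mutants 1 and 2 and none in mutant 3. A count of 0 allows up to 3 counts in that library. Its adjusted p was 0.356 over both types. Col22a1 did not separate the genotypes (log2 fold change 0.06 ± 0.24, adjusted p = 0.905).

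Among the other network chains, Col8a1 rose. Col8a1 encodes a short chain that forms hexagonal lattices beneath endothelia. It was at 0.191, 0.581 and 0.687 CPM in controls against 1.35, 0.767 and 2.33 CPM in mutants. The lowest mutant lay just above the highest control, and the rise was 3.94-fold (log2 fold change 1.98 ± 0.33, adjusted p = 0.00999). The call was lost without control 1 (0.0592), control 2 (0.0549) or mutant 3 (0.0714) and without the library type term (0.593). Its partner Col8a2 had 9 counts over all libraries. Col7a1, of the anchoring fibrils of skin, gave 0.72 ± 0.67 (adjusted p = 0.533).

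The stretch before Col8a1 is shown for comparison with that of Col5a1, since both lay before chains that rose and had no annotated exon in them. It comes from RefSeq (GRCm38.p6, chr16:57754738-57754987, minus strand), with GGGCGG on either strand in capitals.

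Col8a1: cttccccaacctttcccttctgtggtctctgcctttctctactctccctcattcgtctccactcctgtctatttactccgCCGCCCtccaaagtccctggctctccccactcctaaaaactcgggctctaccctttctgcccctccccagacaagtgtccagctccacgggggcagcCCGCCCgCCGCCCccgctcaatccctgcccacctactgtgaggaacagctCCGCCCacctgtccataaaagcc

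The Col8a1 stretch was 60.8% G and C and held 4 GC boxes, no TATA box and no CATCTG. RefSeq held promoter windows, from 250 bases before to 50 after the start, for 35 of the 44 chains (38 windows) and for 7 of the 9 that rose. A GC box on either strand was found in 6 of those 7 windows, in 60.5% of the windows of the collagen chains and in 35.7% of all 32851 windows. TATAAA was found in none of the 7, in 13.2% of the collagen windows and in 13.6% of all windows. CATCTG was found in none of the 7, in 4 of the 38 and in 17.2% of all windows. The longer ACATCTG, which contains it, was found in 2 of the 38 and in 4.43% of all windows. The median share of G and C was 61.7% in the 7 windows, 59.8% in the collagen windows and 52.7% in all windows. The part of base composition in these rates was not tested. The windows of Col4a1 and Col4a2, both among the 7, overlap and are not independent. A match in this window is a description and not a site of binding.

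The 2 matches to ACATCTG lay before Col4a5 and Col3a1 and are shown with up to 10 bases on each side and the motif in capitals. Col4a5 was not called in the edgeR fit but was with DESeq2, and Col3a1, below the filter, had 0, 0 and 5 counts in controls and 9, 9 and 24 in mutants; without the filter both were called higher. Both read on the plus strand of GRCm38.p6, at chrX:141475169-141475187 and at chr1:45311446-45311472.

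Col4a5: agACATCTGagggaaagct
Col3a1: acacatgctcCAGATGTgctgtttctg

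In the edgeR fit none of the 2 tested multiplexins, 3 tested membrane-bound chains or 2 tested beaded filament chains was called, and 2 of these 7, Col15a1 and Col6a1, were called higher with DESeq2. Col18a1, whose end fragment is endostatin, was at 0.890, 1.83 and 1.37 CPM in controls against 1.12, 1.31 and 2.49 CPM in mutants (adjusted p = 0.197). Col15a1, the other multiplexin, gave 1.48 ± 0.44 (adjusted p = 0.0730; 0.0443 with DESeq2). Col25a1, a membrane-bound chain of neurons needed for the innervation of muscle, was at 0.0636, 0.372 and 0.474 CPM in controls against 0.0772, 0.131 and 0.385 CPM in mutants. Its values followed library type and not genotype (log2 fold change 0.07 ± 0.34, adjusted p = 0.994). Col23a1, also membrane-bound, gave 0.27 ± 0.33 (adjusted p = 0.641), and Col17a1, of hemidesmosomes, gave 0.73 ± 0.45 (adjusted p = 0.339). Col6a1, of the beaded filaments around cells, had 0, 1 and 7 counts in controls against 33, 44 and 15 in mutants, with an adjusted p of 0.0949 (0.0323 with DESeq2). Its partner Col6a2 gave 1.03 ± 0.41 (adjusted p = 0.155).

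The 13 chains below the filter were Col1a2, Col3a1, Col4a4, Col5a3, Col6a3, Col6a4, Col6a5, Col6a6, Col8a2, Col9a1, Col10a1, Col13a1 and Col28a1. They had between 5 and 46 counts over all 6 libraries, and none exceeded 0.545 CPM in a library.

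Genes that modify and process collagen were given by a list of 34, of which 33 matched and 32 were tested. Of these, 4 rose and 1 fell, against 7.92% and 7.01% of all genes, and the median log2 fold change was 0.15. Serpinh1 encodes HSP47, the chaperone that binds folded procollagen in the endoplasmic reticulum. It was at 23.6, 11.9 and 11.8 CPM in controls 1, 2 and 3 against 114.5, 91.8 and 54.1 CPM in mutants 1, 2 and 3. It rose 4.46-fold without overlap (log2 fold change 2.16 ± 0.11, adjusted p = 7.11e-05, and 0.0490 without the library type term).

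Plod2, a hydroxylase of lysines for cross-links, was at 1.05, 2.59 and 2.68 CPM in controls against 3.49, 4.75 and 7.21 CPM in mutants (a log2 fold change of 1.66 ± 0.23, adjusted p = 0.00475). Tll1, a protease that trims procollagen ends, was at 0.540, 3.08 and 3.84 CPM in controls against 3.18, 2.56 and 10.4 CPM in mutants, with overlap between library types (1.88 ± 0.26, adjusted p = 0.00460). Loxl1, a cross-linking oxidase, was at 1.91, 1.22 and 0.521 CPM in controls against 8.49, 5.16 and 9.07 CPM in mutants (2.58 ± 0.46, adjusted p = 0.0123). The call of Loxl1 was lost without control 2 (0.0505) or mutant 3 (0.128). Without the library type term the calls of Plod2, Tll1 and Loxl1 were all lost (adjusted p = 0.451, 0.996 and 0.0917).

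Adamts3, which removes the amino-terminal propeptide of procollagen and also cuts reelin, fell. It was at 97.7, 258.6 and 258.6 CPM in controls against 53.0, 57.6 and 105.8 CPM in mutants. Mutant 3 overlapped control 1, a library of the other type, and each mutant lay below the controls of its own type (log2 fold change -1.06 ± 0.12, adjusted p = 0.00207, and 0.307 without the library type term). Ppib, the most abundant of the list per length and a prolyl isomerase of the endoplasmic reticulum, was at 211.7, 123.6 and 111.5 CPM in controls against 230.5, 197.7 and 120.6 CPM in mutants (adjusted p = 0.896). The prolyl hydroxylase subunits P4ha1 and P4hb gave -0.22 ± 0.08 and 0.03 ± 0.10 (adjusted p = 0.110 and 0.898).

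Receptors and matrix partners of collagen were given by a list of 30, of which 22 were tested, 7 rose and 4 fell, against 7.92% and 7.01% of all genes. Their median log2 fold change was 0.39. The 7 were Adgrg1, Mrc2, Agrn, Lamc1, Lama5, Ddr1 and Nid2. Adgrg1 encodes GPR56, a receptor for type III collagen on cortical cells. It was at 270.7, 97.9 and 96.4 CPM in controls against 799.5, 792.2 and 282.2 CPM in mutants. All mutants lay above all controls, and it rose 2.92-fold (log2 fold change 1.55 ± 0.08, adjusted p = 7.43e-05, and 0.275 without the library type term). Its ligand chain Col3a1 stayed at or below 24 counts in each library.

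Mrc2, an endocytic receptor for collagen, was at 0.572, 0.476 and 0.711 CPM in controls against 4.84, 3.40 and 2.83 CPM in mutants, without overlap (log2 fold change 2.46 ± 0.30, adjusted p = 0.00261, and 0.0335 without the library type term). Agrn, a proteoglycan of basement membranes, was at 81.9, 143.5 and 142.4 CPM in controls against 157.2, 152.8 and 204.9 CPM in mutants. It rose by 0.72 ± 0.11 on the log2 scale (adjusted p = 0.00624), and the call was lost without control 1 (0.0510). Lamc1, the common gamma chain of laminins, was at 26.0, 49.3 and 51.9 CPM in controls against 41.3, 56.8 and 89.0 CPM in mutants and rose 1.82-fold (adjusted p = 0.00686), and the call was lost without control 1 (0.0681) or mutant 3 (0.0545). The call of Lama5 was lost without control 2 (0.0631), control 3 (0.0613) or mutant 1 (0.0505). Ddr1 was called only without mutant 1 or mutant 2 (0.0425 and 0.00746) when a library was left out, with 0.0921 to 0.148 otherwise, and Nid2 in none of those fits (0.0650 to 0.357).

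The falls were in other glycoproteins of the matrix. Fn1, fibronectin, on which collagen fibrils assemble, was at 25.4, 28.0 and 34.9 CPM in controls against 3.90, 6.38 and 4.11 CPM in mutants. The groups did not overlap (log2 fold change -2.60 ± 0.25, adjusted p = 0.000979, and 0.0102 without the library type term). Lamb1, a laminin beta chain, was at 61.5, 93.4 and 82.2 CPM in controls against 21.1, 18.8 and 36.0 CPM in mutants (-1.45 ± 0.11, adjusted p = 0.000393, and 0.0744 without the library type term). Thbs1, thrombospondin 1, was at 4.93, 24.0 and 22.1 CPM in controls against 2.28, 2.28 and 3.02 CPM in mutants (-2.03 ± 0.41, adjusted p = 0.0210), and the call was lost without control 2 (0.0555) or control 3 (0.0604). Lama1, a laminin alpha chain, fell by 0.91 ± 0.21 on the log2 scale (adjusted p = 0.0306), and the call was kept only without mutant 2 (0.00540), with 0.0646 to 0.183 without another library. In the fit with the library type term, laminin chains thus moved in both directions, with Lamc1 and Lama5 higher and Lamb1 and Lama1 lower. The Lamc1 groups overlapped. Without that term none of these laminin calls held (adjusted p = 0.996, 0.503, 0.0744 and 0.352, edgeR). The calls of Agrn (0.861), Ddr1 (0.629), Nid2 (0.996) and Thbs1 (0.114) were lost as well.

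**Figure D5:**
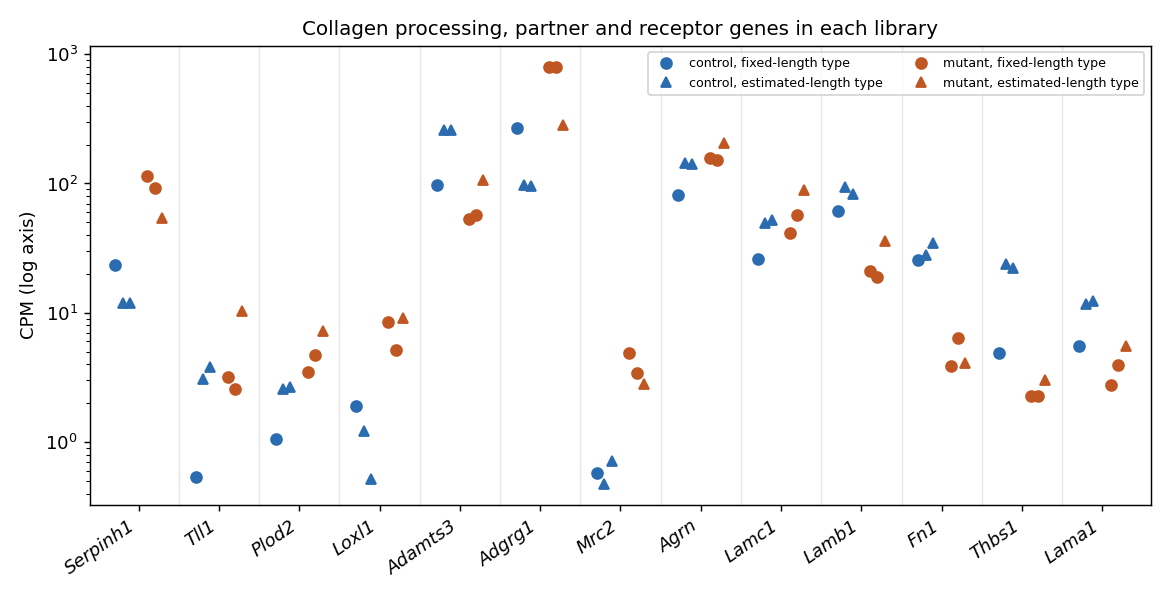
Points give the CPM of 13 collagen processing, partner and receptor genes in each library on a log axis, by genotype and library type. Serpinh1, Adgrg1 and Mrc2 are higher in all mutants than in all controls, and Lamb1, Fn1 and Thbs1 are lower in all mutants.

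Markers of other cell types were measured in the same libraries, where 7.92% of all genes tested rose and 7.01% fell. Of 10 endothelial markers, 4 were tested and Kdr rose. Their sum was 0.858 to 3.20 CPM in controls against 1.54 to 5.67 CPM in mutants, and mutant 3 was highest. No endothelial marker was at 0 in all libraries. Of 10 mural markers, 6 were tested and Cspg4 rose, with sums of 1.37 to 4.76 CPM and 2.22 to 3.73 CPM, and Anpep had no count in the fixed-length libraries. Of 12 meningeal fibroblast markers, 6 were tested and Crabp2, Islr and Pdgfra rose. Their sum was 4.86 to 6.04 CPM in controls against 30.6 to 38.0 CPM in mutants. Most of it was Crabp2, a retinoic acid binding protein, at 2.64, 2.43 and 1.33 CPM in controls against 31.2, 28.4 and 23.0 CPM in mutants. Foxd1, Aldh1a2, Slc6a13 and Ogn had no count in the fixed-length libraries, and Lum, a fibroblast proteoglycan, was at most 0.127 CPM in a library.

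All 9 radial glia markers were tested, of which 3 rose and 3 fell, against 7.92% and 7.01% of all genes. Pax6, a transcription factor of progenitors, was at 8.46, 5.76 and 5.95 CPM in controls against 30.01, 29.6 and 21.7 CPM in mutants (adjusted p = 9.30e-05, edgeR). Hes1, a target of Notch, was at 0.223, 0.179 and 0.261 CPM in controls against 6.33, 6.86 and 8.403 CPM in mutants (adjusted p = 7.11e-05). All mutants lay above all controls for both, and Sox2 also rose. Slc1a3, Fabp7 and Vim fell, and the summed level of the list was 107.3 to 238.0 CPM in controls and 100.8 to 211.8 CPM in mutants. Of 6 Cajal-Retzius markers Calb2 and Ebf3 rose, with sums of 205.9 to 731.5 CPM and 262.4 to 721.5 CPM. Of 8 interneuron markers Dlx5 and Slc32a1 rose, with sums of 1.02 to 4.72 CPM and 2.93 to 6.16 CPM. Of 5 markers of the oligodendrocyte lineage Pdgfra and Cspg4, which other lists hold too, rose and Sox10 had no count. With any single library left out, Rbfox3, Stmn2, Gap43, Pax6, Hes1, Slc1a3, Fabp7, Crabp2, Islr and Ebf3 kept their calls. The other marker calls were each lost without at least 1 library: Kdr (0.0618) and Calb2 (0.0734) without mutant 3, Sox2 without control 1 (0.0530), and Cspg4 without any of the 6 (0.0541 to 0.159). The part of any of these cell types in the rises of Col5a1 and the other chains was not tested.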

How the data were processed

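Per the submitters' processing notes, kallisto and FastQC were run and mm9 was the build; versions are not stated there. Per the labels, libraries were made with a stranded total RNA kit. Each deposited table lists 97251 transcripts with the authors' estimated counts, which need not be whole and were not normalized, and the authors' deposited TPM values, scaled by effective length and total. Transcripts were joined by identifier to GENCODE vM21 (84637 matched; the others held 6.85% to 8.58% of counts and were left out). Estimated counts were summed per gene and rounded. Genotypes were compared with edgeR 4.0.16 (R 4.3.3): TMM, filterByExpr by genotype, a quasi-likelihood fit on all genes with terms for library type and genotype, a prior count of 2, and Benjamini-Hochberg adjustment over 16985 genes. SE is the absolute log2 fold change over the root of the F statistic. The fit was tested on simulated data. DESeq2 1.42.0, other scalings, filters, length offsets and leaving out each library were alternatives. Per-length levels are deposited TPM rescaled over nuclear protein-coding genes. Strand settings of the counting and its handling of near-identical sequence were not found in those notes or the labels.

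The members, lists and the use of the library type term were chosen with earlier results of these data known. The common biological coefficient of variation was 0.186 with that term and 0.701 without it. Chains were named in full if called, if among the 3 of highest mean TPM, or if the genotype effect differed between types. From the other lists, up to 4 called genes in each direction and the most abundant were named. Promoter windows are from RefSeq (GRCm38.p6); no data coordinates were used. Depth was 34645505 to 75892649 counts per library, and floors cover counting error only.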

Additional observations from a re-analysis of the deposited data

How the results depend on the processing

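The 9 chains that rose kept their direction in each alternative fit, and Col5a1, Col9a2 and Col4a1 were called with any single library left out. Of 126 such values over the 9 chains, 35 were no longer past the threshold. The number of chains that rose was 9, and it was 2 without the library type term, 14 with DESeq2, 16 without the filter on low counts and 4 to 11 with a library left out. The number that fell was 0, and it was 1 with DESeq2, 1 without the filter and 1 with effective length offsets (Col9a3 in each), and 0 to 1 with a library left out. Over all genes 1346 rose and 1191 fell, against 270 and 130 without the library type term. DESeq2 gave 1755 that rose and 2284 that fell, and the fit without the filter gave 1709 and 1469 of 28791 genes. Left-out libraries gave 785 to 1589 that rose and 509 to 1445 that fell. The share of calls that rose was 53.1%, and 67.5% without the term, 43.5% with DESeq2 and 48.4% with another scaling (RLE size factors). Of the processing list 5 were called, 1 without the term and 4 to 6 with a library left out. Of the partner list 11 were called, 2 without the term and 6 to 11 with a library left out. Why the counts changed was not tested, except that the fit without a filter tests 28791 genes. Chains under about 10 counts in a library are limited by depth. No paired analysis was possible because the library titles share no number between genotypes, and the numbers 1 to 3 used here only follow the order of deposition.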

Other observations

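Most tested chains were lower in the control of the fixed-length type. Among controls, 29 of the 31 tested chains were higher in the mean of the 2 estimated-length libraries than in the fixed-length library, with a median log2 ratio of 0.70 at a pseudocount of 0.5 CPM, against 9343 of 16985 genes and 0.13 for all genes tested. This compares 1 library with 2, so it is a description with no test, and genes that differ in opposite directions cancel in the median. Col26a1, a secreted chain with short collagenous domains, had the second highest mean TPM of the chains, a mean over 2 types with unlike TPM scales. Its level differed strongly between the types. It was at 0.731, 7.07 and 9.33 CPM in controls 1, 2 and 3 against 0.521, 0.860 and 8.54 CPM in mutants 1, 2 and 3, so that the library types and not the genotypes stood apart (log2 fold change 0.01 ± 0.31, adjusted p = 0.995, edgeR). A retained-intron model, Col26a1-207, held 91.1% and 91.6% of its counts in controls 2 and 3 and 81.0% in mutant 3, against 7.87%, 36.1% and 16.0% in control 1, mutant 1 and mutant 2. Levels of Col26a1 per length in the estimated-length type, 42.5, 56.1 and 49.0, thus rest mostly on a noncoding model.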
